A study of Mus musculus with 24 samples.

Results

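Among the genes with which liver endothelial cells (ECs) control clotting and clot removal, 9 were followed here: F8, Vwf, Thbd, Procr, Plat, Tfpi, F2r, F3 and Proc. They were chosen by gene symbol, and each was found in all 4 deposited count tables, as 9 of the 48820 entries of a table. ECs keep blood fluid by displaying thrombomodulin (Thbd) and the endothelial protein C receptor (Procr), which together let thrombin activate protein C, and by making tissue factor pathway inhibitor (Tfpi), which blocks the first step of clotting. They also store von Willebrand factor (Vwf), the carrier of coagulation factor VIII (F8), and release tissue plasminogen activator (Plat), which turns plasminogen into the clot-dissolving enzyme plasmin. Sinusoidal ECs of the liver are known as a main site of factor VIII production, whereas the large-vessel endothelium is the usual site of Vwf, and hepatocytes secrete most other clotting factors, protein C (Proc) included.

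The study asked how the ligands BMP9 (encoded by Gdf2) and BMP10, made by hepatic stellate cells (HSCs), act on other liver cells. Bulk RNA-seq covered 24 libraries in 8 groups of 3, all from mice labelled C57BL/6. Mice with Lrat-Cre and both floxed genes (Bmp10 fl/fl and Gdf2 fl/fl), labelled Bmp9/10-HSC-KO and called HSC-KO here, lose both ligands in cells that express the HSC gene Lrat. They were compared with control mice in hepatic ECs gated as CD45-CD31+ and in liver macrophages gated as CD45+, Ly6C-, F4/80+ and CD64+, both at 8 to 10 weeks of age, and in whole liver at 12 weeks. The same macrophage gate was sorted from Smad4FF cKO mice, in which Vav1-Cre deletes floxed Smad4, the shared SMAD of BMP and TGF-β signalling, in blood-forming lineages, and from Smad4FF controls, also at 8 to 10 weeks. The CD31 gate takes all hepatic ECs, sinusoidal or not. In 3 cases ECs and macrophages were sorted from the same animal.

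In whole liver, Gdf2 stood at 19.6, 9.74 and 22.9 CPM (counts scaled to a common library size) in control replicates 1, 2 and 3 and at 3.61, 2.09 and 2.53 CPM in HSC-KO, and Bmp10 fell from a range of 2.03 to 3.48 to one of 0.088 to 0.259 CPM in these libraries. Smad4 stood at 33.0 to 40.6 CPM in Smad4FF macrophages and at 13.2 to 18.3 CPM in Smad4FF cKO macrophages. Libraries held 60911527 to 110879155 assigned counts. In ECs, the summed CPM of 12 pan-endothelial markers was 11275 to 12216 in controls and 9877 to 10974 in HSC-KO, while that of 9 sinusoidal EC markers was 20960.4 to 21389 in controls and 1666 to 3885 in HSC-KO, and that of 8 continuous or large-vessel EC markers was 1370.0 to 2029 and 6975 to 8261. HSC-KO EC replicate 1 stood nearest to the controls, with the sinusoidal sum of 3885 against 1999 and 1666 in replicates 2 and 3. Its mouse also gave HSC-KO macrophage replicate 3.

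Promoter windows of 300 bases (RefSeq, GRCm38.p6, from 250 bases before to 50 after a start site) were given for 5 of the members, F8, Procr, Tfpi, F2r and F3, with 2 windows for Tfpi. Those of the 4 members among them that passed the test in ECs are shown, so that the genes that fell (F8, Tfpi, F2r) can be set beside the one that rose (Procr). Capitals mark matches on either strand to the letters AGATAA, bound by GATA factors, or to CCACCC, bound by KLF factors. The searches also took in the SMAD GC-rich element, GGCGCC, and the SMAD palindrome, which reads GTCTAGAC. The windows are F8 at chrX:75379992-75380291 on the minus strand, Tfpi at chr2:84476710-84477009 and chr2:84474125-84474424 on the minus strand, F2r at chr13:95618417-95618716 on the minus strand and Procr at chr2:155750967-155751266 on the plus strand. The F8 window and the second Tfpi window lie inside the gene as GENCODE vM21 draws it, since RefSeq lists a start site there.
F8: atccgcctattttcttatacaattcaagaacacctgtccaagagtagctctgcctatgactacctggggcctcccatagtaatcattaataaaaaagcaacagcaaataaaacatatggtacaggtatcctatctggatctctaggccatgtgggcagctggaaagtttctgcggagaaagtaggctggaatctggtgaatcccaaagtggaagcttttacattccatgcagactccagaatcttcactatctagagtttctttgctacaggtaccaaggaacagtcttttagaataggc
Tfpi, first window: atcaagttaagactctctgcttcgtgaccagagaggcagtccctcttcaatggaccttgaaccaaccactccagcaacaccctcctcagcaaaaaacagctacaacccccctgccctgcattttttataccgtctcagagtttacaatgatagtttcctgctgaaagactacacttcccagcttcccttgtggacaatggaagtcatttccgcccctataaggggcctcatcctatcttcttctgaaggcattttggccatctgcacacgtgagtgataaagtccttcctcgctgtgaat
Tfpi, second window: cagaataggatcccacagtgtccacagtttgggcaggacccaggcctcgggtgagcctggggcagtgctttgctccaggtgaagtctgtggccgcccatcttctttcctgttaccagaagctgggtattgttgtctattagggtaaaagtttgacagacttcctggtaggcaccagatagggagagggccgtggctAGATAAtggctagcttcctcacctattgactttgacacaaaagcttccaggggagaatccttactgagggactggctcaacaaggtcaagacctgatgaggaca
F2r: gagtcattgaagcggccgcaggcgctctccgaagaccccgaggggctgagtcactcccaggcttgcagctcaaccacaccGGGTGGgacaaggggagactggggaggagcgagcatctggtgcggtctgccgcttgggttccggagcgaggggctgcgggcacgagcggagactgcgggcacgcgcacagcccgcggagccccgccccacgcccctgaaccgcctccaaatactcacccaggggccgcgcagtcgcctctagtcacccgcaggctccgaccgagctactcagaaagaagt
Procr: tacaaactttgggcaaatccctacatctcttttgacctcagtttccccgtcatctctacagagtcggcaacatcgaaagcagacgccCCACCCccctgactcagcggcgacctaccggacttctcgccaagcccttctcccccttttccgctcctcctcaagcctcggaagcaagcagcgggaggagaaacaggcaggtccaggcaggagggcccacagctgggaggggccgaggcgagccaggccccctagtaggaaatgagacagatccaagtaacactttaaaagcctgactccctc

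The KLF letters stood in 3 of the 6 windows, those of Procr (CCACCC, first base at -163 from the start site), F2r (GGGTGG, at -170) and F3, against 31.5% of all 32851 mouse promoter windows of this length. The GATA letters stood in 1 window, the second of Tfpi (at -54), against 11.2% of all windows. GGCGCC, which 11.9% of all windows hold, and GTCTAGAC, which 0.213% hold, were found in none of the 6. Such matches are a description of these windows and not binding sites.

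In HSC-KO ECs, 3 of the 9 members rose and 2 fell, where 13.7% of the 16053 genes tested were called (7.68% higher and 6.01% lower), and 20.1% passed at any fold. A call here means a change of more than 2-fold at an adjusted p below 0.05, and every adjusted p is from edgeR's quasi-likelihood test with Benjamini-Hochberg adjustment over all genes tested. The genes of the protein C pathway receptors, Thbd and Procr, and of the plasminogen activator Plat rose. F8 and the inhibitor Tfpi fell, and the thrombin receptor gene F2r fell by less than 2-fold. The median log2 fold change of the 9 members was 0.00, that of all genes tested 0.00. Scaling by library size alone moved the median of all genes up by 0.29 and the share of calls that were higher from 56.1% to 72.5%.

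F8, the cofactor whose lack causes haemophilia A, was measured at 646, 847 and 874 CPM in control ECs and at 241, 98.9 and 90.5 CPM in HSC-KO ECs. The groups did not overlap, and HSC-KO replicate 1 held more than either other mutant library. F8 was thus 5.51-fold lower in HSC-KO (log2 fold change -2.46, SE 0.395, adjusted p = 0.00483), and without that library the log2 change was -3.06.

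Vwf, which carries factor VIII and tethers platelets, was at 88.0, 84.9 and 80.1 CPM in control ECs and at 178, 73.4 and 90.0 CPM in HSC-KO ECs. One mutant library was high and the other two lay around the controls. The log2 fold change of 0.43 (SE 0.307) did not pass (adjusted p = 0.386), and it was -0.05 without HSC-KO replicate 1. F3, tissue factor, which starts clotting and which resting endothelium is known to lack, stayed at 0.0978 to 0.34 CPM in all 6 EC libraries, and its adjusted p was 0.823.

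Thbd was the most abundant member per length of transcript in ECs. It was read at 898, 803 and 1430.1 CPM in control ECs and at 2484, 2014 and 2264 CPM in HSC-KO ECs. Every mutant library stood above every control. The log2 fold change was 1.11 (SE 0.254, adjusted p = 0.0199), a 2.16-fold rise, and it lay between 0.95 and 1.41 under 13 other settings, of which 3 ended the call. Each of the 3 left out 1 library, control replicate 1, control replicate 2 or HSC-KO replicate 3, and the adjusted p reached 0.0655.

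Procr, the membrane receptor that hands protein C to the thrombin-thrombomodulin complex, was low in ECs, at 6.35, 5.92 and 6.36 CPM in controls. In HSC-KO ECs it was at 11.5, 17.8 and 13.1 CPM, above all controls, which is 2.28-fold (log2 fold change 1.19, SE 0.20, adjusted p = 0.00588). Without HSC-KO replicate 2 the log2 change was 0.99, just short of 2-fold. In these EC libraries the summed CPM of 8 macrophage markers was 205 to 291 in controls and 57.7 to 96.5 in HSC-KO. The part of macrophage RNA in the Procr values was not tested. Proc itself, the zymogen that both receptors serve, was at 0.342, 0.776 and 0.964 CPM in control ECs and at 0.361, 1.19 and 0.538 in HSC-KO ECs (log2 fold change 0.00, SE 0.646).

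Tfpi, the Kunitz-type inhibitor of the tissue factor complex, was at 338, 413 and 396 CPM in control ECs. It was at 207, 102 and 99.6 CPM in HSC-KO ECs, with no overlap and with replicate 1 again nearest to the controls. It fell 2.81-fold (log2 fold change -1.49, SE 0.297, adjusted p = 0.0116), and by 1.93 on the log2 scale without that library.

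Plat rose in ECs from a low level. Its CPM was 3.72, 5.11 and 4.02 in controls and 18.7, 25.4 and 28.6 in HSC-KO. The lowest mutant library was above 3 times the highest control. The rise was 5.66-fold (log2 fold change 2.50, SE 0.221, adjusted p = 0.000336), and it was called under all 13 other settings, with a log2 fold change between 2.36 and 2.81. F2r, which encodes the thrombin receptor PAR1, was at 236, 229 and 204 CPM in controls and at 145, 137 and 116 CPM in HSC-KO. It fell by 0.75 on the log2 scale (SE 0.139, adjusted p = 0.00868) without overlap, short of the 2-fold limit, and was at -0.46 (adjusted p = 0.0512) with library size alone. In bulk samples such as these, fewer cells of a type and less RNA per cell cannot be told apart.

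**Figure D1:**
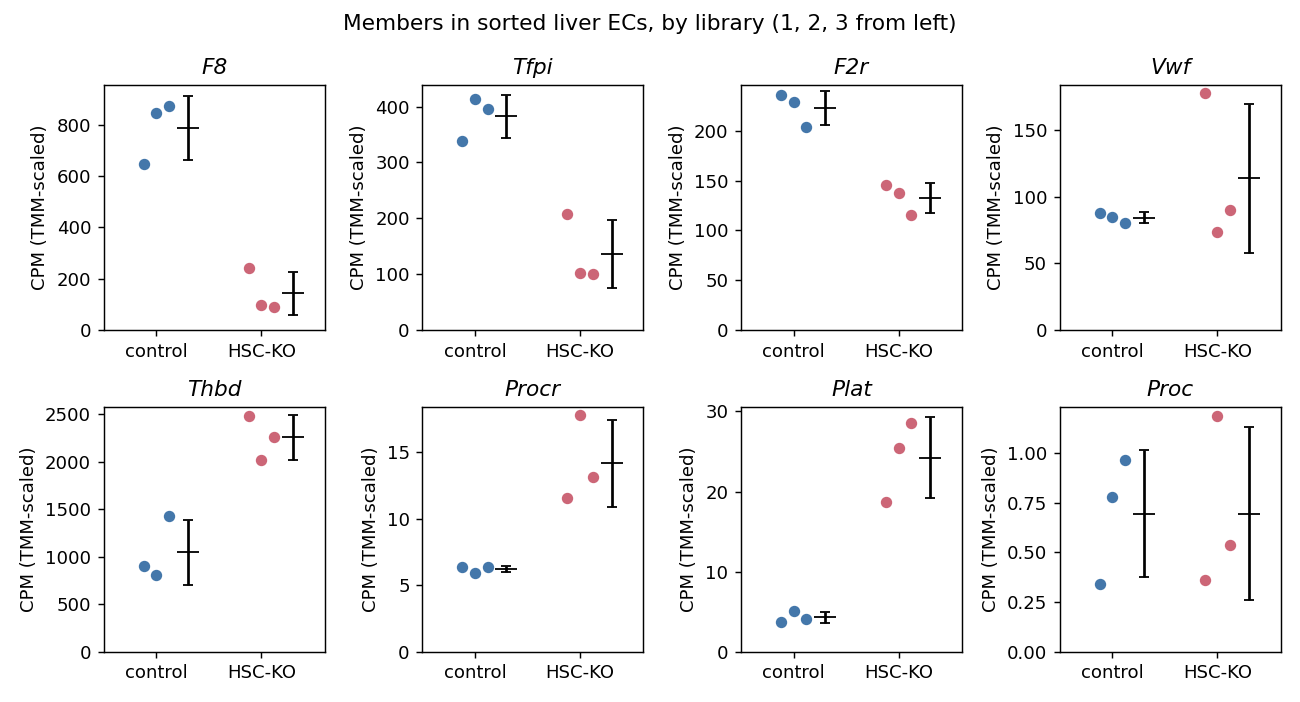
Level of 8 members in each sorted EC library, in TMM-scaled CPM (y axes start at 0), for 3 control and 3 HSC-KO mice. Points are libraries and the bar beside them is the mean with its SD. F8, Tfpi and F2r are lower and Thbd, Procr and Plat higher in every HSC-KO library than in every control, while Vwf (73.4 to 178 CPM in HSC-KO) and Proc overlap.

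Of 57 other genes of clotting, fibrinolysis and their endothelial regulation, 45 could be tested in ECs, and 4 were called higher and 5 lower. The median log2 fold change of the 45 was -0.50. Among the protease-activated receptors beside F2r, F2rl3 (PAR4, a thrombin receptor best known from platelets) was at 0.537, 1.26 and 0.937 CPM in controls and at 39.7, 33.0 and 40.4 CPM in HSC-KO ECs (log2 fold change 5.38, SE 0.327, adjusted p = 8.98e-05). The summed CPM of 7 platelet and megakaryocyte markers was 7.19 to 10.9 in control ECs and 7.97 to 9.01 in HSC-KO ECs, with Gp1bb and Gp5 at 0 in both groups. The part of platelet RNA in the F2rl3 value was not tested. Entpd1 (CD39, which degrades the platelet agonist ADP) was at 15.5, 11.3 and 10.6 CPM in controls and rose to 92.2, 101 and 129 CPM (log2 fold change 3.11, adjusted p = 0.000125).

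In the fibrinolysis list, 2 of 10 genes tested were called, both higher. Anxa2, a cell surface receptor for Plat and plasminogen, rose from 557, 450.2 and 504 to 1207, 1226 and 1247 CPM (log2 fold change 1.28, adjusted p = 0.00141). Of the anticoagulants beside the members, Pros1 (protein S, the cofactor of activated protein C) fell from 230, 282 and 249 to 146, 108 and 108 CPM, by 1.07 on the log2 scale (adjusted p = 0.00426), close to the 2-fold limit, and the call was lost in 4 of 13 other settings (library size alone, and without control replicate 2 or HSC-KO replicate 2 or 3), with changes down to -0.78.

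F2, prothrombin, a hepatocyte product, fell from 6.53, 5.14 and 5.17 to 1.81, 0.963 and 1.12 CPM (log2 fold change -2.11, adjusted p = 0.00367), while the summed CPM of 8 hepatocyte markers was 63.7 to 113 in control ECs and 66.0 to 82.0 in HSC-KO ECs.

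Genes for the handling of VWF and factor VIII went lower where they were called. Rab27a, which tethers Weibel-Palade bodies, the storage granules of VWF, fell from 217, 227 and 290 to 68.5, 59.3 and 56.4 CPM (log2 fold change -1.99, adjusted p = 0.000244). Rab3b, a small GTPase of the same granules, fell by 3.07 on the log2 scale (adjusted p = 0.0202), a call lost in 3 of 13 other settings (without control replicate 1 or 2 or HSC-KO replicate 2), with an adjusted p of up to 0.0718. The cargo receptor pair that carries factor VIII out of the endoplasmic reticulum, Mcfd2 and Lman1, had log2 fold changes of -0.72 (adjusted p = 0.0321) and -0.42 (adjusted p = 0.0477), both short of 2-fold. Of 13 other settings, 7 ended the pass of Mcfd2 and 12 that of Lman1, with values of -0.44 and -0.13 at library size alone (adjusted p = 0.115 and 0.465). The clearance receptor Stab2, a sinusoidal marker, was at 2155 to 2462 CPM in controls and at 952, 117 and 100.3 CPM in HSC-KO replicates 1, 2 and 3 (adjusted p = 0.0709), and without replicate 1 its log2 change was -4.43 and passed, as it did by DESeq2 and with the replicate block.

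In liver macrophages, 1 of the 8 members tested, Procr, fell in HSC-KO, where 11.7% of 16337 genes were called (6.32% higher and 5.34% lower). None rose (0 of 8 by edgeR's quasi-likelihood test, 0 by DESeq2). At an unadjusted p below 0.05, which 33.1% of all genes met in either direction, 0 members were higher and 4 lower. The median log2 fold change of the 8 was -1.28, and that of all genes tested was 0.04. Plat was too low to test, with 6 reads in 1 HSC-KO library and 0 in the other 5.

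Procr was at 12.9, 12.8 and 14.2 CPM in control macrophages and at 2.09, 2.74 and 4.04 CPM in HSC-KO macrophages. All 3 control libraries were above the mutant range. It fell 4.49-fold (log2 fold change -2.17, SE 0.267, adjusted p = 0.00152). Tfpi was at 31.9, 39.0 and 39.7 CPM in controls and at 21.3, 17.6 and 19.1 CPM in HSC-KO, a fall of 0.93 on the log2 scale (SE 0.146, adjusted p = 0.00424) that is short of 2-fold and free of overlap. It went past 2-fold without control replicate 1 or HSC-KO replicate 1.

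The summed CPM of 8 macrophage markers was 19791 to 21669 in control and 17694 to 19585 in HSC-KO macrophages, and that of 8 hepatocyte markers was 3363 to 4357 and 4698 to 5961. For 4 lymphocyte markers it was 10.3 to 19.3 in controls and 28.8 to 90.4 in HSC-KO. The part of these shifts in the members' changes was not tested. The macrophage libraries also held some EC transcripts. The summed CPM of 11 pan-endothelial markers, leaving out Cdh5 because Kupffer cells (the resident liver macrophages) express it, was 65.6 to 241 in controls and 56.6 to 114 in HSC-KO. Scaled by that sum, EC RNA could supply 0.245% to 0.909% of the Procr and 6.09% to 18.3% of the Tfpi seen in control macrophages, and 2.58% to 4.51% and 3.88% to 7.22% in HSC-KO. With this sum as a covariate, an alternative chosen after the data were seen, the log2 fold change was -2.06 for Procr (adjusted p = 0.00541) and -0.81 for Tfpi (adjusted p = 0.0242). With all 12 markers, a sum that Cdh5 splits by genotype (349 to 498 against 57.4 to 117), the Procr value was -1.17 with an adjusted p of 0.889.

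F8 in macrophage libraries was no more than EC RNA could supply in most of them. It was at 0.236, 11.5 and 6.01 CPM in controls and at 0.148, 0.126 and 2.37 CPM in HSC-KO. The scaled EC share was above 100% of it in 5 of the 6 libraries and 61.4% in HSC-KO replicate 3. It was 1698% in control replicate 1 and 647% and 572% in HSC-KO replicates 1 and 2, so this scale can overstate EC RNA. The log2 fold change of F8 was -2.75 (adjusted p = 0.234). Thbd, by contrast, was well above the EC share, which reached 24.8% at most. It was at 232, 323 and 57.2 CPM in control macrophages and at 90.2, 51.0 and 92.3 CPM in HSC-KO. The third control lay inside the mutant range, and the log2 fold change of -1.39 did not pass (SE 0.553, adjusted p = 0.124), while without that control it was -1.84 and passed (adjusted p = 0.00975).

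Vwf (adjusted p = 0.353), F2r (adjusted p = 0.988), F3 (adjusted p = 0.26) and Proc (adjusted p = 0.0874) did not pass in HSC-KO macrophages. Proc was at 3.3, 6.82 and 7.11 CPM in controls and at 3.59, 1.57 and 2.52 CPM in HSC-KO, and hepatocyte transcripts in the same libraries could supply more than 200% of it in each. It passed by DESeq2 and without control replicate 1. Of 52 other pathway genes tested there, 6 were called higher and 3 lower. Plau, the other plasminogen activator (urokinase), rose from 1.55, 0.966 and 2.01 to 8.44, 11 and 5.74 CPM (log2 fold change 2.48, adjusted p = 0.00334). F13a1, the fibrin-crosslinking transglutaminase made by macrophages and platelets, rose from 0.213, 0.271 and 0.647 to 41.0, 32.4 and 23.9 CPM (log2 fold change 6.48, adjusted p = 0.000152). The 7 platelet and megakaryocyte markers also summed to more in these libraries, 553 to 972 CPM against 49.7 to 69.9 in controls. Nearly all of that sum was Pf4, at 58.5 CPM on average in controls and 757 CPM in HSC-KO (log2 fold change 3.70, adjusted p = 0.000123), while each of the other 6 markers was at 0.413 CPM or less on average in either group, with Gp1bb at 0 in both and Gp5 at 0 in HSC-KO. The part of platelet RNA in the F13a1 value was not tested. With the 12-marker endothelial covariate, which Cdh5 splits by genotype, the log2 change was 0.12 for Plau and 5.11 for F13a1 and neither passed, and with the 11-marker sum both passed (2.15 and 6.57).

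In Smad4FF cKO macrophages Procr again fell, as 1 of 8 members tested, where 5.43% of 17517 genes were called (2.76% higher and 2.67% lower). None rose (0 of 8 by edgeR's quasi-likelihood test and 0 by DESeq2). At an unadjusted p below 0.05, which 21.4% of all genes met in either direction, 1 member was higher and 2 lower. The median log2 fold change of the 8 was -0.09, beside 0.04 for all genes tested, a median that library size alone moved up by 0.16, with 62.4% of calls higher against 50.9%. Procr was at 17.4, 24.7 and 22.1 CPM in Smad4FF macrophages and at 1.64, 1.77 and 1.28 CPM in Smad4FF cKO macrophages. The lowest control was over 9 times the highest mutant. The fall was 13.7-fold (log2 fold change -3.77, SE 0.22, adjusted p = 0.000137), and it was called under all 13 other settings (-3.92 to -3.61).

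These libraries held more EC transcripts than those of the HSC-KO experiment, with the 11-marker sum at 488 to 1592 CPM in Smad4FF and 1266 to 1614 CPM in Smad4FF cKO. Macrophage markers summed to 21746 to 25914 CPM in Smad4FF and to 12206 to 16789 CPM in Smad4FF cKO, hepatocyte markers to 1441 to 1751 and 2870 to 4998, and platelet and megakaryocyte markers to 54.2 to 83.5 and 286 to 417, of which Pf4 made up nearly all. The groups did not overlap in these last 3 sums, and their part in the fall of Procr was not tested. EC RNA on this scale could supply 45.6% to 48.9% of the Procr left in Smad4FF cKO macrophages and 0.963% to 4.42% of that in Smad4FF. F8, at 84.5, 23.4 and 83.4 CPM against 82.4, 50 and 53 CPM, was lowest in the Smad4FF library with the lowest EC sum and did not pass (log2 fold change -0.04, SE 0.453). The scaled EC share of F8 was above 100% in all 6 libraries, and that of Thbd was 68.5% to 205.6%. Thbd (adjusted p = 0.803), Tfpi (0.873), F2r (0.557), Proc (0.457) and Vwf (0.145) did not pass. F3 rested on 17, 17 and 19 reads in Smad4FF and on 0, 0 and 3 reads in Smad4FF cKO, and did not pass (adjusted p = 0.0893). Of 54 other pathway genes tested, 2 were called higher, Cd63 among them, and 1 lower, Ptgis, whose call was lost in 9 of 13 other settings.

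**Figure D2:**
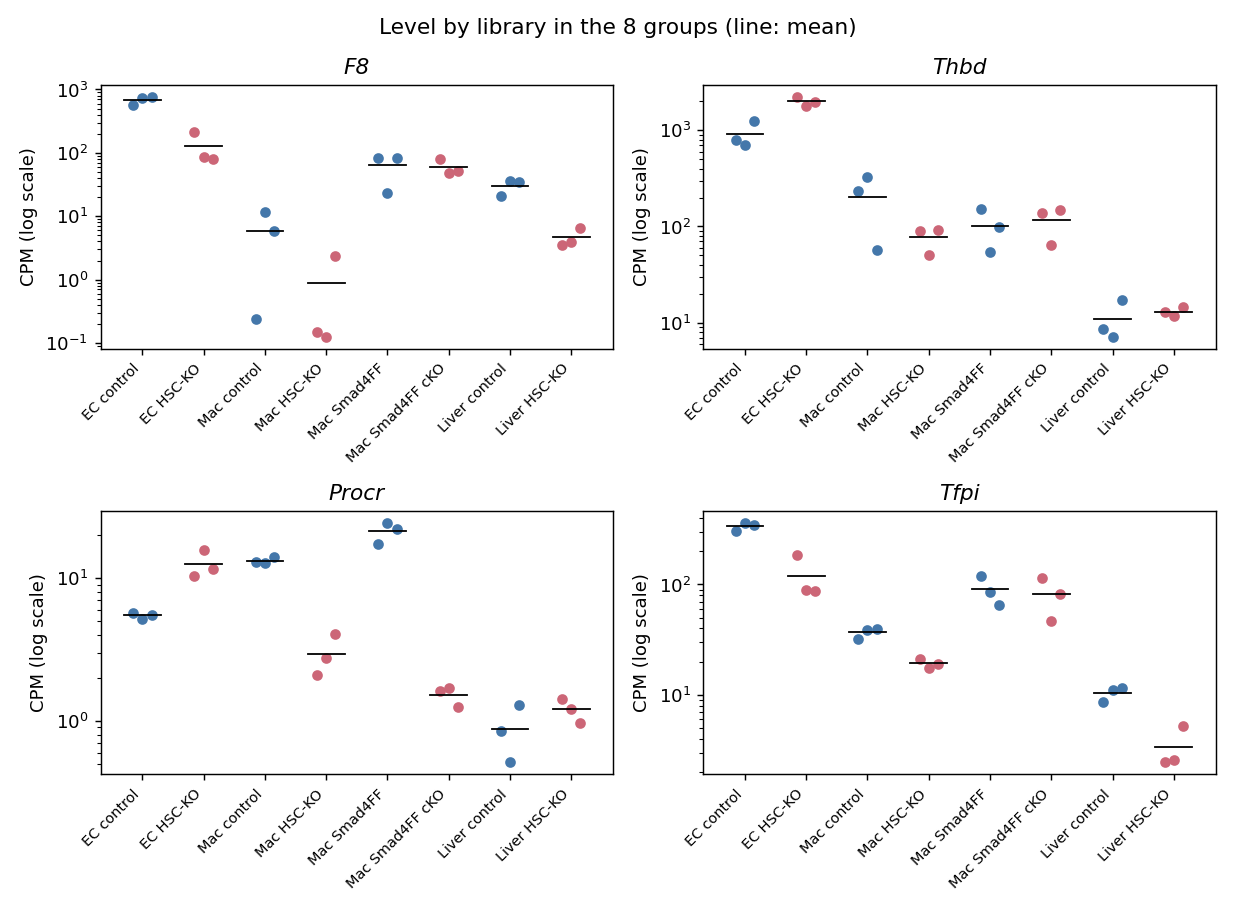
Level of F8, Thbd, Procr and Tfpi in each of the 24 libraries, in CPM scaled over all of them (log y axis), by group, with the mean as a line. Procr is low in HSC-KO and Smad4FF cKO macrophages (1.25 to 4.03 CPM) and high in their controls (12.8 to 24.4 CPM), but higher in HSC-KO than in control ECs.

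The opposite moves of Procr were tested directly. Its log2 change in HSC-KO ECs exceeded that in HSC-KO macrophages by 3.34 (SE 0.342, adjusted p = 0.000108), where 12.3% of 18213 genes differed, and all 15 other settings gave the same call. Control macrophages held more Procr than control ECs (13.2 ± 0.669 against 5.47 ± 0.242 CPM, SD, n = 3), whereas HSC-KO macrophages held less than HSC-KO ECs (2.95 ± 0.992 against 12.5 ± 2.79 CPM). Thbd differed in the same direction, by 2.50 (SE 0.699, adjusted p = 0.0339), but 10 of the 15 other settings, those without any 1 library but control EC replicate 3 or control macrophage replicate 3, ended that call, with an adjusted p of up to 0.0822. Between both macrophage experiments, the fall of Procr was larger in Smad4FF cKO by 1.65 on the log2 scale (SE 0.337, adjusted p = 0.0244, where 2.61% of 18149 genes differed), and 6 of 15 other settings ended that call, those without Smad4FF replicate 2 or 3, Smad4FF cKO replicate 1 or 3, or control replicate 2 or 3. Tfpi fell in ECs and macrophages alike in sign, and the difference between both changes was -0.56 (SE 0.361, adjusted p = 0.338), or -1.01 without HSC-KO EC replicate 1, when it passed (adjusted p = 0.00742).

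In whole liver, 2 of the 9 members were called, F8 and Vwf, both lower, where 2.48% of 17118 genes were called (1.03% higher and 1.45% lower). None rose (0 of 9 by edgeR's quasi-likelihood test, 0 by DESeq2). An unadjusted p below 0.05, which 12.9% of all genes met in either direction, was reached by 0 members that were higher and 3 that were lower. The median of the 9 log2 fold changes was 0.00, and that of all genes tested -0.01 (-0.12 with library size alone). Summed marker CPM also differed between these livers, being 544 to 739 in controls and 91.0 to 123 in HSC-KO for sinusoidal ECs, and 281 to 431 and 104 to 168 for macrophages. It was 323 to 433 in controls and 551 to 604 in HSC-KO for stellate cells, and 113 to 130 and 258 to 292 for continuous or large-vessel ECs. Hepatocyte markers summed to 141580.5 to 175165 CPM in controls and 178348 to 239421 CPM in HSC-KO. The pan-endothelial sum was 451 to 520 in controls and 466 to 559 in HSC-KO. The part of these shifts in the members' changes was not tested beyond the pan-endothelial covariate. F8 was at 17.2, 29.9 and 29.3 CPM in control livers and at 2.99, 3.32 and 5.63 CPM in HSC-KO livers, a range far below that of the controls. The fall was 6.39-fold (log2 fold change -2.68, SE 0.316, adjusted p = 0.0062), and it was called under all 13 other settings.

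Vwf was at 14.9, 13 and 15.9 CPM in control livers and at 2.33, 3.39 and 6.14 CPM in HSC-KO livers. The groups did not overlap, and the fall was 3.69-fold (log2 fold change -1.88, SE 0.337, adjusted p = 0.031). In 6 of 13 other settings the call was lost, with an adjusted p of up to 0.127 and a log2 fold change between -2.36 and -1.61. These were the pan-endothelial covariate and the fits without any one of the 3 control libraries or of HSC-KO replicates 1 and 2. Tfpi had a like fall in size, from 7.11, 9.36 and 9.68 to 2.06, 2.17 and 4.43 CPM (log2 fold change -1.59, SE 0.329), without overlap, but its adjusted p of 0.0519 missed the threshold. It passed in 5 of 13 other settings, by DESeq2 (-1.59, adjusted p = 8.4e-05), with library size alone, with the replicate block, with the Xist covariate, and without HSC-KO replicate 3, where it was -2.04 (adjusted p = 0.0069).

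The other members did not pass in whole liver. Proc, a hepatocyte product, was the most abundant member there and stood at 441, 435 and 422 CPM in controls and at 457, 399 and 447 CPM in HSC-KO (log2 fold change 0.00, SE 0.121). F2r was at 21.2, 17.6 and 19.4 CPM in controls and at 15.6, 18.8 and 42.4 CPM in HSC-KO, with HSC-KO replicate 3 alone high. Thbd (log2 fold change 0.28, adjusted p = 0.81), Procr (0.48, adjusted p = 0.754), Plat (1.41, adjusted p = 0.424) and F3 (-0.03, adjusted p = 0.991) had overlapping groups. None of the 13 clotting factor genes of hepatocytes passed (0 by edgeR), where only 2.48% of all genes tested were called. Among the 13 was Fgb, the fibrinogen beta chain, at 4249.7 to 5221 CPM in controls and 5087 to 5867 CPM in HSC-KO. Of the 55 other pathway genes tested, 2 were called, both lower, Stab2 (86.0 to 116 against 9.62 to 12.7 CPM) and Rab3b (0.543 to 0.842 CPM against 0 in all 3 HSC-KO livers). The call of Rab3b was lost in 4 of 13 other settings, with the replicate block or without any 1 control library.

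**Figure D3:**
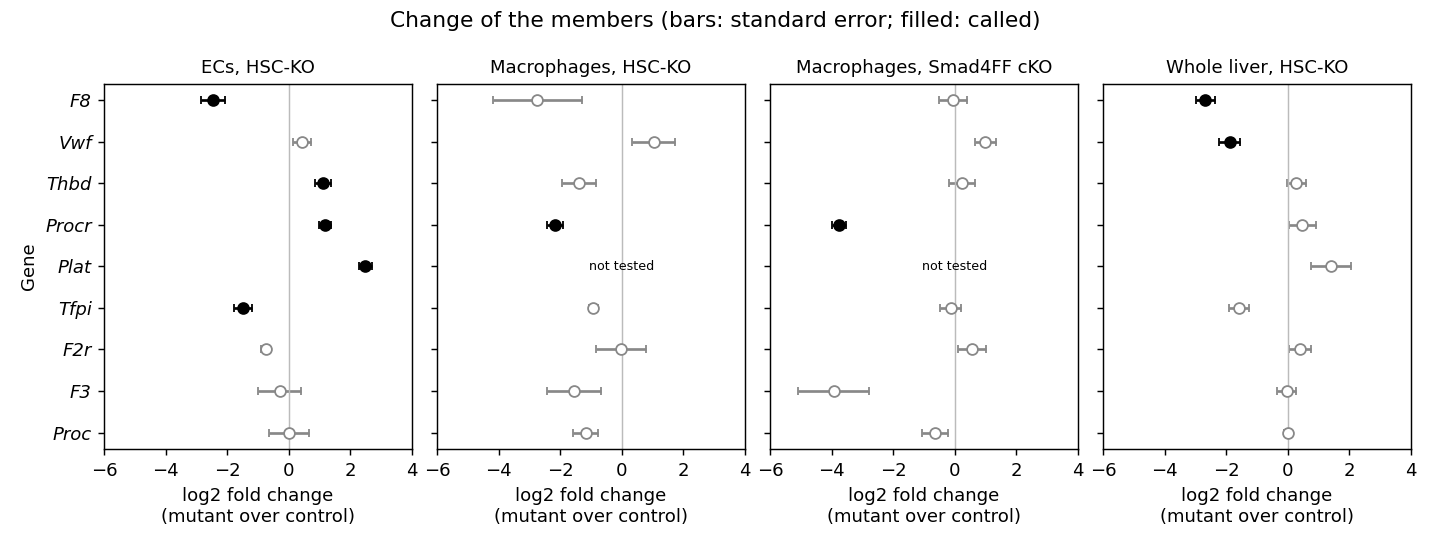
Log2 fold change of each member, mutant over control, with its standard error, in the 4 comparisons. Filled points were called and open points were not. F8 stands at -2.46 in ECs and -2.68 in whole liver, and Procr at 1.19 in ECs, -2.17 in HSC-KO macrophages and -3.77 in Smad4FF cKO macrophages.

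Set against each other, the changes in ECs and in whole liver differed for Vwf and not detectably for the rest. Vwf had a log2 change higher in ECs than in liver by 2.35 (SE 0.507, adjusted p = 0.0158), where 6.53% of 18875 genes differed, and all 15 other settings kept that call. For F8 the difference was 0.25 (SE 0.541, adjusted p = 0.889) and for Tfpi 0.14 (SE 0.47, adjusted p = 0.957). F2r differed by -1.11 (SE 0.424, adjusted p = 0.151), Plat by 1.13 (SE 0.71, adjusted p = 0.406), Thbd by 0.87 (SE 0.444, adjusted p = 0.292) and Procr by 0.75 (SE 0.441, adjusted p = 0.37), none of which passed. The liver and EC mice differed in age and in RNA extraction, and only the ECs were dissociated and sorted, and these cannot be told apart from the tissue.

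The level of a member per unit of EC transcript was also set side by side in sorted ECs and liver. F8 was 4.95%, 6.94% and 6.55% of the 11-marker pan-endothelial sum in control ECs and 5.11%, 8.35% and 7.57% in control livers, and Tfpi was 2.98% ± 0.397 and 2.41% ± 0.264 (SD, n = 3). These ranges overlapped. Vwf was 0.674%, 0.696% and 0.60% of the sum in control ECs but 4.41%, 3.63% and 4.12% in control livers, and in HSC-KO it was 0.69% to 1.53% in ECs and 0.644% to 1.75% in liver. Scaled by the sum, sorted-EC RNA would supply 14.8% to 18.1% of the Vwf of control livers and 57.5% to 157% of that of HSC-KO livers. Thbd went the other way, with 8.06% ± 2.3 of the sum in control ECs and 2.49% ± 1.05 in control livers, and 19.9% ± 1.34 and 3.0% ± 0.545 in HSC-KO. These shares are descriptions and were not tested.

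**Figure D4:**
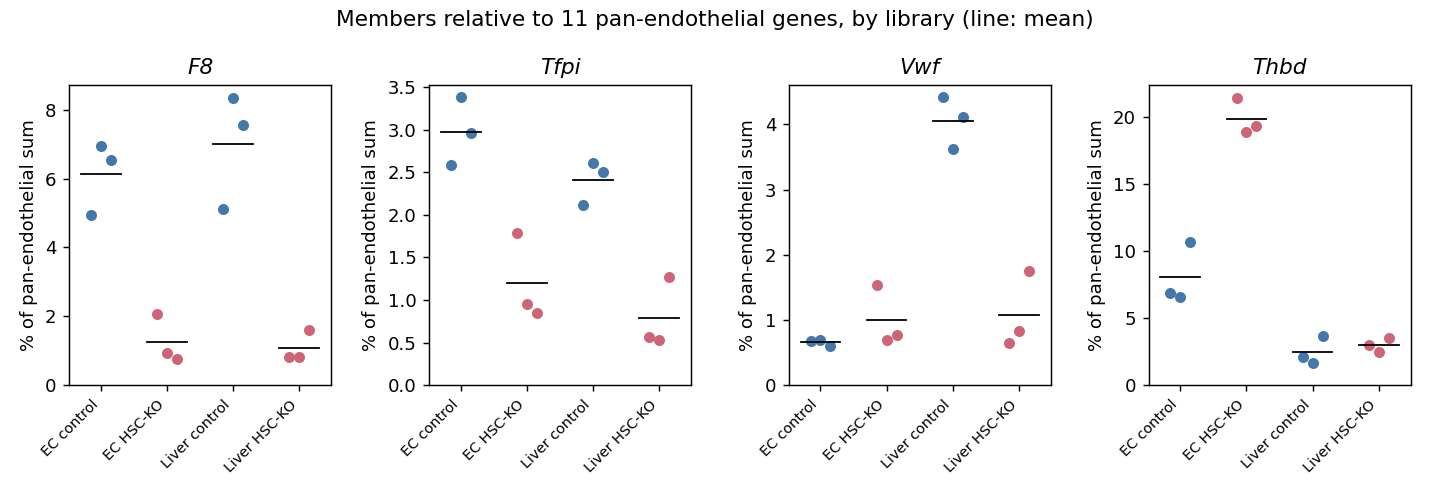
F8, Tfpi, Vwf and Thbd as a percentage of the summed CPM of 11 pan-endothelial genes (y axes start at 0) in each EC and whole liver library, with the mean as a line. F8 and Tfpi have like shares in ECs and liver, Vwf is at 3.63% to 4.41% in control livers and at or below 1.75% in the other groups, and Thbd is higher in ECs than in liver.

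Per kilobase of exon, the order of the members in control ECs was Thbd (247 ± 77.9 CPM per kb, SD, n = 3), F8 (70.1 ± 10.4), Tfpi (61.6 ± 5.75), F2r (59.0 ± 5.01), Vwf (4.63 ± 0.266), Procr (2.69 ± 0.119), Plat (0.605 ± 0.1), Proc (0.246 ± 0.111) and F3 (0.088 ± 0.034). F8, Tfpi and F2r had overlapping ranges. In HSC-KO ECs Thbd still led, at 535 ± 60.9 CPM per kb, followed by F2r at 35.2 ± 4.27, Tfpi at 22.1 ± 10.2 and F8 at 12.8 ± 7.7. There the range of Tfpi overlapped that of F2r and that of F8. Across groups, F8 was highest in control ECs (695 ± 103 CPM over all 24 libraries scaled together), then in HSC-KO ECs (127 ± 76.3), of which replicate 3 alone lay in the range of the Smad4FF (63.5 ± 34.9) and Smad4FF cKO macrophages (60.3 ± 18.0), then in control liver (30.6 ± 8.38). Proc was at 521 ± 14.1 CPM in control livers and 511 ± 37.1 CPM in HSC-KO livers, and at 5.72 CPM or less on average elsewhere. F3 was at 3.47 ± 0.866 CPM in control liver and at 0.504 CPM or less on average in sorted cells.

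Over all 24 libraries, the gene whose log2 level ran closest to F8 among 12161 genes was Tspan7 (Pearson's r = 0.984), followed by Col13a1 (0.982) and Aqp1 (0.981). For Thbd they were Rbms1 (0.968) and Klf4 (0.957), for F2r Plxnd1 (0.975), and for Proc the hepatocyte genes Hrg (0.994) and Fgb (0.993). Among 12162 genes, Plat ran closest to Spry1 (0.975). These values describe 8 groups of 3 libraries that share cell type and extraction, and carry no test.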

How the data were processed

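Raw counts per gene were deposited for each experiment, made by the authors with HISAT2 and featureCounts on mm10 (GRCm38), with FastQC named for read quality. Versions and strand setting are not given in the sources used here. The members and all gene lists were chosen with earlier results of these data known. Symbols shared by several entries were left out of the joins, Klkb1 among them. Each comparison of 3 against 3 libraries was fitted in edgeR 4.0.16 (R 4.3.3): genes kept by filterByExpr (minimum count 10, total 15), TMM scaling, glmQLFit and glmQLFTest, Benjamini-Hochberg adjustment over all genes tested. A call needed adjusted p below 0.05 and an absolute log2 change above 1, the thresholds that the methods of the study give for DESeq2. Differences between changes were contrasts of 4 group means over 12 libraries, treated as independent although 3 animals appear in both cell types. SE is the absolute log2 change divided by the root of F. CPM are TMM-scaled within a comparison, or over all 24 libraries where levels are set across groups. Lengths are exon unions of GENCODE vM21. Named genes were the 9 members and, of each pathway list, up to 4 called genes of largest change, with the most abundant 2 where under 2 were called. Mcfd2, Lman1 and Stab2 in ECs were named after their values were seen. Some genes counted in the lists are not reported here by name. EC or hepatocyte RNA that could supply a member was its level in ECs or liver of the same genotype times the ratio of marker sums. The supply from ECs to Smad4 macrophages used EC libraries of the other experiment. Fits were also run on simulated counts with the same dispersion for every gene and independent libraries. That setting is simpler than these data, and no result given here rests on it. Alternatives were DESeq2 1.42.0, other scalings, no filter, each library left out, a replicate block, Xist and marker sums as covariates. Replicates are separate mice.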

Additional observations from a re-analysis of the deposited data

Results flagged for a closer look

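The difference between the changes of 1 gene in 2 settings passed its own test for 3 members. Procr changed in opposite directions in HSC-KO ECs and macrophages, by a log2 difference of 3.34. Thbd, which rose in ECs and did not pass in macrophages, had a difference of 2.50, a value that lost its call in 10 of 15 other settings. Vwf changed differently in HSC-KO ECs and whole liver, by 2.35. The fall of Procr differed between HSC-KO and Smad4FF cKO macrophages by 1.65, a call lost in 6 of 15 other settings.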

How the results depend on the processing

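In ECs, F8, Plat and Tfpi were called under all 13 other settings. Signs changed in 44 of 962 single-gene values, all of genes not called at first, with adjusted p from 0.30 to 1.00, and the causes were not tested. Leaving out 1 library in turn gave -0.047 to 0.67 for Vwf, -0.69 to 0.042 for F3 and -0.62 to 0.31 for Proc in ECs. It gave -0.20 to 1.44 for Vwf and -0.66 to 0.64 for F2r in HSC-KO macrophages, and -0.46 to 0.19 for F8, -0.073 to 0.62 for Thbd and -0.46 to 0.14 for Tfpi in Smad4FF cKO macrophages. In liver it gave -0.17 to 0.66 for F2r, -0.28 to 0.16 for F3 and -0.033 to 0.063 for Proc. For the difference between ECs and liver it gave -0.36 to 0.59 for F8 and -0.31 to 0.59 for Tfpi. Library size alone gave 0.085 for F2r in HSC-KO macrophages, 0.11 for F8 and 0.031 for Tfpi in Smad4FF cKO macrophages, and -0.11 for Proc in liver. The Xist covariate gave 0.085 for F3 in ECs, 0.045 for F2r in HSC-KO macrophages, and -0.19 for F2r, 0.074 for F3 and -0.020 for Proc in liver. It was not run for Smad4FF cKO, where Xist did not vary by more than the planned limit. The pan-endothelial covariate gave 5.68 for F8, 1.18 for Thbd, 5.84 for F2r and 0.049 for Proc in HSC-KO macrophages, with 5 genes called and 0 members called lower, and -0.0076 for Proc in liver, where 1 member was called lower. Without Cdh5 it gave 1.07 for F2r in HSC-KO macrophages, -0.054 for Thbd and -0.012 for F2r in Smad4FF cKO macrophages and 619 genes called in Smad4FF cKO.

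DESeq2 called 2 members lower in HSC-KO macrophages, 814 genes in liver, 2003 genes in the difference between ECs and liver and 1108 in that between both macrophage experiments. Leaving out 1 library gave 1 to 3 members called lower in HSC-KO macrophages, and 1 to 2 in Smad4FF cKO, with 566 to 909 genes called there. It gave 188 to 451 genes and 1 to 3 members called lower in liver, 1 to 2 members higher and 0 to 1 lower in the difference between ECs and macrophages, and 233 to 556 genes and 0 to 1 members higher in that between both macrophage experiments. The 3 members lower in HSC-KO macrophages were counted without control replicate 1, the 566 genes without Smad4FF replicate 3 and the 188 without liver control replicate 2. Same-numbered replicates are different mice, and their deviations correlated between -0.11 and 0.16. In ECs these values were 0.033 to 0.12, above those of differently numbered libraries (-0.13 to 0.023). In the other comparisons both ranges overlapped. Whether the numbers mark a shared litter or batch was not tested, and the main fits left the libraries unpaired. With the replicate block, 271 genes were called in liver, where Tfpi passed (-1.67, adjusted p = 0.0475), Proc in ECs stood at -0.048 and F8 in Smad4FF cKO macrophages at 0.13. Calls of Tfpi2 (adjusted p = 0.0656) and S100a10 (0.0791) in HSC-KO macrophages, Ptgis in Smad4FF cKO (0.101) and Rab3b in liver (0.115) were lost with the block, Stab2 in ECs passed (0.031), and Lman1 in ECs, short of a call, no longer passed (0.0852). No other call of a member or named gene changed with the block. Precision is limited by 3 mice per group and, for F3 everywhere but liver and for Plat in macrophages, by few reads (8 to 22 for F3 in ECs).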
